A study of Mus musculus with 6 samples.

Results

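The molecular circadian clock was examined through 10 genes, *Arntl*, *Npas2*, *Clock*, *Nr1d1*, *Nr1d2*, *Dbp*, *Tef*, *Per1*, *Per2* and *Per3*, in vascular cells and microglia of the mouse brain. They were matched by symbol and were 10 of 32287 genes and added transcripts in the deposited matrices. Single-cell RNA sequencing, which counts unique molecular identifiers (UMIs, 1 per captured RNA molecule), had been run on 6 libraries, each from 1 cerebral hemisphere of 1 mouse. The WT group was 3 C57BL/6J mice and the ArcSwe group was 3 mice with the genotype AppArcSwe, a transgenic model of amyloid-β deposition with cerebral amyloid angiopathy, in which amyloid-β collects in vessel walls. All 6 mice were male, 12 months old and untreated, and were kept under 12 h light and 12 h dark. Vessel fragments were captured on beads against CD31, an endothelial surface protein, so cells that were attached to vessels were favoured. The promoter of the transgene and the hour of the day at which each brain was taken are not given in the sources used here.

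The clock is a transcriptional feedback loop found in most mammalian cells. BMAL1, the product of *Arntl*, pairs with CLOCK or its paralog NPAS2 and binds E-box elements, which drives *Per1*, *Per2*, *Per3*, *Nr1d1*, *Nr1d2*, *Dbp* and *Tef*. The PER proteins, with the CRY proteins, inhibit BMAL1 and CLOCK, and REV-ERBα and REV-ERBβ (*Nr1d1*, *Nr1d2*) repress *Arntl*, *Npas2* and *Clock* through elements shared with the ROR activators. DBP and TEF are transcription factors of the PAR bZIP family that bind D-box elements and relay the rhythm to output genes. In a rhythmic tissue *Arntl* and *Npas2* therefore peak at nearly the opposite time of day from *Nr1d1* and *Dbp*. Endothelial cells and smooth muscle cells are known to hold such clocks, which bear on vascular tone and on transport across the blood-brain barrier.

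In GENCODE vM21 (GRCm38, the assembly of mm10) the positive arm is *Arntl* (ENSMUSG00000055116) at chr7:113207465-113314126 on the plus strand, *Npas2* (ENSMUSG00000026077) at chr1:39193731-39363236 on the plus strand and *Clock* (ENSMUSG00000029238) at chr5:76209868-76304792 on the minus strand. The REV-ERB genes are *Nr1d1* (ENSMUSG00000020889) at chr11:98767932-98775333 on the minus strand and *Nr1d2* (ENSMUSG00000021775) at chr14:18204054-18239127 on the minus strand. The PAR bZIP genes are *Dbp* (ENSMUSG00000059824) at chr7:45705088-45710203 on the plus strand and *Tef* (ENSMUSG00000022389) at chr15:81802421-81826863 on the plus strand. The Period genes are *Per1* (ENSMUSG00000020893) at chr11:69095217-69109960 on the plus strand, *Per2* (ENSMUSG00000055866) at chr1:91415982-91459324 on the minus strand and *Per3* (ENSMUSG00000028957) at chr4:151003652-151044665 on the minus strand. The identifiers in the deposited matrices are the same for all 10, and UMIs are counted over the whole gene, so no value below belongs to 1 isoform.

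The promoters of the genes were searched for the elements these factors bind. RefSeq promoters (GRCm38.p6, 250 bases before to 50 bases after a transcript start) were found for 9 of the 10 genes, 14 promoters in all, and read on both strands for E-boxes (CACGTG and the variant CACGTT), D-boxes (TTATGTAA and TTACGTAA) and ROR/REV-ERB elements (TAGGTCA and TGGGTCA). None of these motifs is contained in another. A motif was found in 6 promoters of 5 genes. Of all 32851 promoters in the table, 7.15% held CACGTG, 4.68% CACGTT, 0.938% TTATGTAA, 0.119% TTACGTAA, 2.61% TAGGTCA and 3.98% TGGGTCA. One promoter of each of the 5 genes is shown because the genes of the 2 arms of the loop are compared below, with the motif in capitals and each sequence written 5′ to 3′ on the strand of the gene. These are *Arntl* (chr7:113207261-113207560, plus strand), *Nr1d1* (chr11:98775328-98775627, minus strand), *Tef* (chr15:81802423-81802722, plus strand), *Per1* (chr11:69098699-69098998, plus strand) and *Per3* (chr4:151044616-151044915, minus strand).
Arntl: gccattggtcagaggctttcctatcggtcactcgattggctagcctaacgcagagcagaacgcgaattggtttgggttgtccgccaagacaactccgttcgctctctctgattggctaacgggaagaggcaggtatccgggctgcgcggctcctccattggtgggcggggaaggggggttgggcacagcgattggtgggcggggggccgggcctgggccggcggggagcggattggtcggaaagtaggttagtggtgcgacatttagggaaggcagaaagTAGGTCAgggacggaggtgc
Nr1d1: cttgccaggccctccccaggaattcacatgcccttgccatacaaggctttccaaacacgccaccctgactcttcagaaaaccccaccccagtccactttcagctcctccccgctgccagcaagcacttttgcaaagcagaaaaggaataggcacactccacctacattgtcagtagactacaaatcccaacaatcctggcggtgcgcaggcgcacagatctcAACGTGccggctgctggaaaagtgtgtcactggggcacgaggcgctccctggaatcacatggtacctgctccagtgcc
Tef: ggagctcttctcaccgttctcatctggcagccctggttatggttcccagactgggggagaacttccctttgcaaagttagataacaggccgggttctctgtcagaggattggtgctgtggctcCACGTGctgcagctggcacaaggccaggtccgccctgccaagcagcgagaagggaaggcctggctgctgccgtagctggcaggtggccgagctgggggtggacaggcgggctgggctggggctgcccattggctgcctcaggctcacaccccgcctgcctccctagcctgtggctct
Per1: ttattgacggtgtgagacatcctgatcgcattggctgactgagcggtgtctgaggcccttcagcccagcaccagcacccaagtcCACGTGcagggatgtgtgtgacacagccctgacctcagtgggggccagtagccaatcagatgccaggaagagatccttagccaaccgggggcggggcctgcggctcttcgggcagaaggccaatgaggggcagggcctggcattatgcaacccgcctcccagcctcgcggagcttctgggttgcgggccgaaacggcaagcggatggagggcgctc
Per3: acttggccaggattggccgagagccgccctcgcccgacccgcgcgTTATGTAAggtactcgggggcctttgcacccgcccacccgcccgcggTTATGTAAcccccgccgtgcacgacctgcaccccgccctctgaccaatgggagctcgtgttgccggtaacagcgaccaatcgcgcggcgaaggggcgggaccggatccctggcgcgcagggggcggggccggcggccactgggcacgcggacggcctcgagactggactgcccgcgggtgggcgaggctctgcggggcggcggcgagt
The *Arntl* promoter held TAGGTCA with its first base 30 bases after the start. *Nr1d1* held the variant E-box on the opposite strand, 28 bases before the start, so it reads AACGTG on the strand of the gene. *Tef* and *Per1* each held a CACGTG E-box, 127 and 166 bases before their starts, and *Per3* held the D-box TTATGTAA at 205 and again at 158 bases before its start. A second *Tef* promoter (chr15:81811164-81811463, plus strand) held CACGTG 138 bases before its start. The windows of *Clock*, *Npas2*, *Nr1d2* and *Dbp* held none of these letters. A match describes the letters and does not show binding.

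After the filters on cells, 44112 of 49059 cells were kept, of which 26362 fell into 7 classes named from fixed marker genes. The 10 clock genes were left out of the genes used for clustering. The classes were arterial-like, capillary-like and venous-like endothelial cells of the barrier-forming vessels, fenestrated-like endothelial cells, smooth muscle-like cells, pericyte-like cells and microglia-like cells, called below by these names without the suffix. The 3 barrier zones were also summed as barrier endothelial cells, which held 1039 to 4504 cells per mouse. Levels are given as CPM, UMIs of a gene per 1000000 UMIs of that class in that mouse, and rest on sums of 7059134 to 17155302 UMIs per mouse in barrier endothelial cells, 860728 to 2797472 in smooth muscle cells and 390961 to 889233 in fenestrated cells. Pericytes were the thinnest class, with 28 to 186 cells and 79623 to 412595 UMIs per mouse. The libraries shared 4 to 42 cell barcodes per pair. The 8 endothelial markers summed to 13780 to 20730 CPM per mouse in the barrier zones and 8771 to 11060 CPM in fenestrated cells, 6 smooth muscle markers to 35600 to 39610 CPM in smooth muscle cells and 6 pericyte markers to 14670 to 22430 CPM in pericytes. In smooth muscle cells and pericytes the summed level of endothelial markers was at most 4.92% of that in barrier endothelial cells of the same mouse. In microglia the same share ran from 4.40% to 27.0%, and different clusters held most microglia in different mice: cluster 11 in WT mice 1 and 2 (73.4% and 66.0%), cluster 13 in WT mouse 3 (88.7%) and cluster 3 in the 3 ArcSwe mice (68.0%, 86.2% and 77.6%).

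The first question was in which cell types each clock gene was most abundant. Levels in this account of cell types are means ± SD over all 6 mice (n = 6), and differences are log2 fold changes ± their standard error (SE) from 1 edgeR fit with the mouse as a block and Benjamini-Hochberg adjustment over 11946 genes, called at an adjusted p under 0.05. Smooth muscle cells differed from capillary cells in all 10 genes, where 66.9% of all genes differed: 7 genes were lower in smooth muscle cells (*Arntl*, *Clock*, *Nr1d1*, *Nr1d2*, *Dbp*, *Tef*, *Per3*; background 36.2%) and 3 were higher (*Npas2*, *Per1*, *Per2*; background 30.7%). Pericytes, the other mural cells, differed from smooth muscle cells in 5 genes, all higher in pericytes (*Nr1d1*, *Nr1d2*, *Dbp*, *Tef*, *Per3*), against 15.4% of all genes in this direction and 35.4% in either. Within the barrier, arterial and capillary cells differed in 3 genes (background 27.5%) and capillary and venous cells in 2 (background 16.8%). Of the calls between capillary and smooth muscle cells, those of *Npas2*, *Nr1d1*, *Nr1d2*, *Tef*, *Per2* and *Per3* held in each alternative fit, and those of the other 4 did not. That of *Arntl* was lost without any 1 of 5 mice (adjusted p from 0.0512 without ArcSwe mouse 1 to 0.231 without WT mouse 2) and with size factors from relative log expression (0.0648). That of *Clock* was also lost without any 1 of 5 mice (0.0693 without ArcSwe mouse 3 to 0.254 without WT mouse 2), with relative log expression (0.0804), with the stricter cell filter (0.0844) and in the WT mice alone (0.104). That of *Dbp* was lost without ArcSwe mouse 2 (0.0756), with the stricter filter (0.137) and in the WT mice alone (0.114), and that of *Per1* in the WT mice alone (0.0754). The stricter filter kept cells with at least 1000 genes and under 5% mitochondrial UMIs. Against pericytes, the call of *Per3* was lost without WT mouse 3 (0.0564). The count between arterial and capillary cells was 1 in the WT mice alone and 1 without WT mouse 1, WT mouse 2 or ArcSwe mouse 1. Its background of 27.5% belongs to the main fit only.

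The other pairs of classes are given by their counts. Among endothelial cells 4 (background 27%) of the 10 genes differed between arterial and venous cells, and fenestrated cells differed from arterial, capillary and venous cells in 5 (background 33.3%), 4 (background 35.4%) and 6 (background 32.5%). Smooth muscle cells differed from arterial, venous and fenestrated cells in 9 (background 65.4%), 7 (background 63.9%) and 7 (background 59.5%). Pericytes differed from arterial, capillary and venous cells in 5 (background 44.6%), 5 (background 44.2%) and 5 (background 44.2%) and from fenestrated cells in 1 (background 39.8%). Microglia differed from arterial, capillary, venous and fenestrated cells in 7 (background 76.7%), 8 (background 75.9%), 8 (background 73%) and 6 (background 64.8%), from smooth muscle cells in 8 (background 79.3%) and from pericytes in 5 (background 59%). Counts near the background say nothing particular of clock genes, and each background here is over all 11946 genes.

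Of the positive arm, *Arntl* was highest in arterial cells (60.6 ± 18.4 CPM) and lowest in microglia (26.3 ± 8.38 CPM). From arterial through venous cells, pericytes and capillary cells to fenestrated cells and smooth muscle cells (32.4 ± 6.36 CPM) no neighbours in the order differed by the test, whereas smooth muscle cells were above microglia (0.41 ± 0.15 SE, adjusted p = 0.0114), by 0.63 without WT mouse 3 and with the call lost in the WT mice alone (0.0629). At cluster resolution 2 venous (0.75, adjusted p = 0.00305) and capillary cells (0.62, adjusted p = 0.00805) were called above pericytes. Capillary cells were called above fenestrated cells at resolution 2 (adjusted p = 0.0486) and without ArcSwe mouse 3 (0.0454). The step from arterial to capillary cells was 0.32 ± 0.11 SE, adjusted p = 0.0328. *Npas2*, the paralog of *Clock*, had a different order, with the highest mean in venous cells (30.1 ± 14.7 CPM), then pericytes (21.5 ± 17.4 CPM), smooth muscle cells (19.2 ± 5.38 CPM), arterial cells (14.5 ± 5.68 CPM), fenestrated cells (11.6 ± 9.80 CPM), capillary cells (9.55 ± 3.36 CPM) and microglia (1.95 ± 2.05 CPM). It was higher in venous than in capillary cells (1.70 ± 0.19 SE, adjusted p = 6.11e-09) and in arterial than in capillary cells (0.60 ± 0.19 SE, adjusted p = 0.0144), so that within the barrier it was lowest in capillaries. Of neighbours in its order, smooth muscle cells were above arterial cells (0.62 ± 0.21 SE, adjusted p = 0.00984) and capillary cells above microglia (2.00 ± 0.28 SE, adjusted p = 2.95e-08), the former lost in the WT mice alone (0.35, adjusted p = 0.270) and without ArcSwe mouse 1 (0.0611). Venous cells were called above pericytes only at cluster resolution 2 (1.14, adjusted p = 7.90e-04). The arterial step of *Npas2* was lost without WT mouse 1 (adjusted p = 0.0666) or WT mouse 2 (0.0644). That of *Arntl* was lost without any 1 of the 3 WT mice or ArcSwe mouse 1 (0.0771 to 0.112), in the WT mice alone (0.0831) and at cluster resolution 2, where it fell to 0.15 (adjusted p = 0.371). *Clock* was the most even of the 3, from 106 ± 20.1 CPM in pericytes to 69.4 ± 8.77 CPM in smooth muscle cells, and no neighbours in its order differed.

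The REV-ERB genes separated from each other in microglia. *Nr1d1* was highest in pericytes (154 ± 22.2 CPM), followed by fenestrated (101 ± 40.7 CPM), arterial (92.6 ± 34.8 CPM), capillary (69.9 ± 29.4 CPM) and venous cells (57.6 ± 32.6 CPM), smooth muscle cells (32.5 ± 11.2 CPM) and microglia (12.7 ± 4.58 CPM). It was higher in arterial than in capillary cells (0.42 ± 0.13 SE, adjusted p = 0.0131), in venous than in smooth muscle cells (0.61 ± 0.17 SE, adjusted p = 0.00156) and in smooth muscle cells than in microglia (1.25 ± 0.19 SE, adjusted p = 1.25e-07), and the other neighbours did not differ by the test. The arterial step was lost without WT mouse 2 (adjusted p = 0.0732) or ArcSwe mouse 1 (0.0517) and in the WT mice alone (0.0842). The venous step was lost in the WT mice alone (0.15, adjusted p = 0.630) and at resolution 2 (0.31, adjusted p = 0.127). Pericytes were called above fenestrated cells with relative log expression (adjusted p = 0.0315), at resolution 2 (0.0264) and without ArcSwe mouse 2 (0.0217). Capillary cells were called above venous cells at resolution 2 (0.44, adjusted p = 0.0309). *Nr1d2* also had its highest mean CPM in pericytes (103 ± 22.9 CPM), with microglia next (78.6 ± 20.9 CPM), but on the fitted scale the 2 classes did not differ by the test and the sign was the opposite (pericytes minus microglia -0.07 ± 0.13 SE, adjusted p = 0.662). Microglia were above fenestrated cells (0.38 ± 0.10 SE, adjusted p = 0.00152), a call lost with the stricter cell filter (0.21, adjusted p = 0.0861) and in the WT mice alone (0.111), and the difference was 0.25 without WT mouse 2. The endothelial means lay between 55.4 and 70.9 CPM, and smooth muscle cells were lowest (36.5 ± 11.9 CPM), below venous cells by 0.49 ± 0.10 SE, adjusted p = 5.77e-05. At resolution 2 the venous difference fell to 0.22 and its call was lost (adjusted p = 0.112).

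The PAR bZIP genes *Dbp* and *Tef* both had their highest mean CPM in pericytes and the next highest in fenestrated cells. *Dbp* had a level of 132 ± 73.4 CPM in pericytes, 66.4 ± 31.3 CPM in fenestrated cells, 31.1 ± 14.8 CPM in arterial cells, 27.6 ± 10.9 CPM in capillary cells, 19.98 ± 12.9 CPM in venous cells, 14.02 ± 5.77 CPM in smooth muscle cells and 10.1 ± 1.93 CPM in microglia. Pericytes were above fenestrated cells (0.73 ± 0.26 SE, adjusted p = 0.0219) and fenestrated cells above arterial cells (1.06 ± 0.21 SE, adjusted p = 5.48e-05), and no later neighbours differed. The step from pericytes to fenestrated cells was lost without WT mouse 2 (adjusted p = 0.102) or WT mouse 3 (0.123) and at resolution 2 (0.0630), and was 1.40 in the WT mice alone. Capillary cells were called above venous cells at resolution 2 (adjusted p = 0.0391) and without ArcSwe mouse 2 (0.0464). Smooth muscle cells were called above microglia at resolution 2 (0.0261) and with the stricter filter (0.0215). The same call was gained without ArcSwe mouse 2 (0.00972), WT mouse 1 (0.0407) or WT mouse 2 (0.0258). Between the mural types the difference was 2.63 ± 0.28 SE, adjusted p = 3.11e-10, with pericytes higher. *Tef* ran from 51.5 ± 12.9 CPM in pericytes and 43.8 ± 11.1 CPM in fenestrated cells to 14.9 ± 4.36 CPM in smooth muscle cells, with steps at fenestrated against arterial cells (0.51 ± 0.15 SE, adjusted p = 0.00792) and at capillary against venous cells (0.55 ± 0.14 SE, adjusted p = 0.00281), the former lost without ArcSwe mouse 1 (0.0888) and in the WT mice alone (0.0559). Pericytes and fenestrated cells did not differ by the test in *Tef* (adjusted p = 1). Microglia were called above capillary cells with relative log expression (adjusted p = 0.0347), in the WT mice alone (0.0417) and without ArcSwe mouse 3 (0.0110). They were called above arterial cells in the WT mice alone (0.0420) and without ArcSwe mouse 3 (0.0202).

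The 3 Period genes each had their own distribution. *Per1*, which also answers to hormones and to neuronal activity, was highest in microglia (130.1 ± 26.98 CPM), above pericytes (61.9 ± 31.5 CPM) by 1.56 ± 0.21 SE, adjusted p = 4.31e-08. Smooth muscle cells (58.1 ± 12.3 CPM) were above arterial cells (52.6 ± 7.70 CPM) by 0.34 ± 0.14 SE, adjusted p = 0.0309, a call lost without ArcSwe mouse 1 (0.0763) and in the WT mice alone (0.214), and the difference was 0.52 without WT mouse 2. *Per2* again had its highest mean in microglia (19.9 ± 6.85 CPM), with pericytes at 16.6 ± 13.1 CPM, fenestrated cells at 13.2 ± 10.4 CPM, smooth muscle cells at 10.7 ± 3.49 CPM and the barrier zones from 3.28 to 5.65 CPM. The only step called between its neighbours in the main fit was smooth muscle over capillary cells (1.15 ± 0.28 SE, adjusted p = 4.93e-04). At resolution 2 pericytes were also called above fenestrated cells (1.25, adjusted p = 0.00230). *Per3* lay between 12.9 and 23.7 CPM in the other 6 classes and was lowest in smooth muscle cells (5.80 ± 1.71 CPM), below microglia by 1.29 ± 0.23 SE, adjusted p = 3.25e-06.

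**Figure D1:**
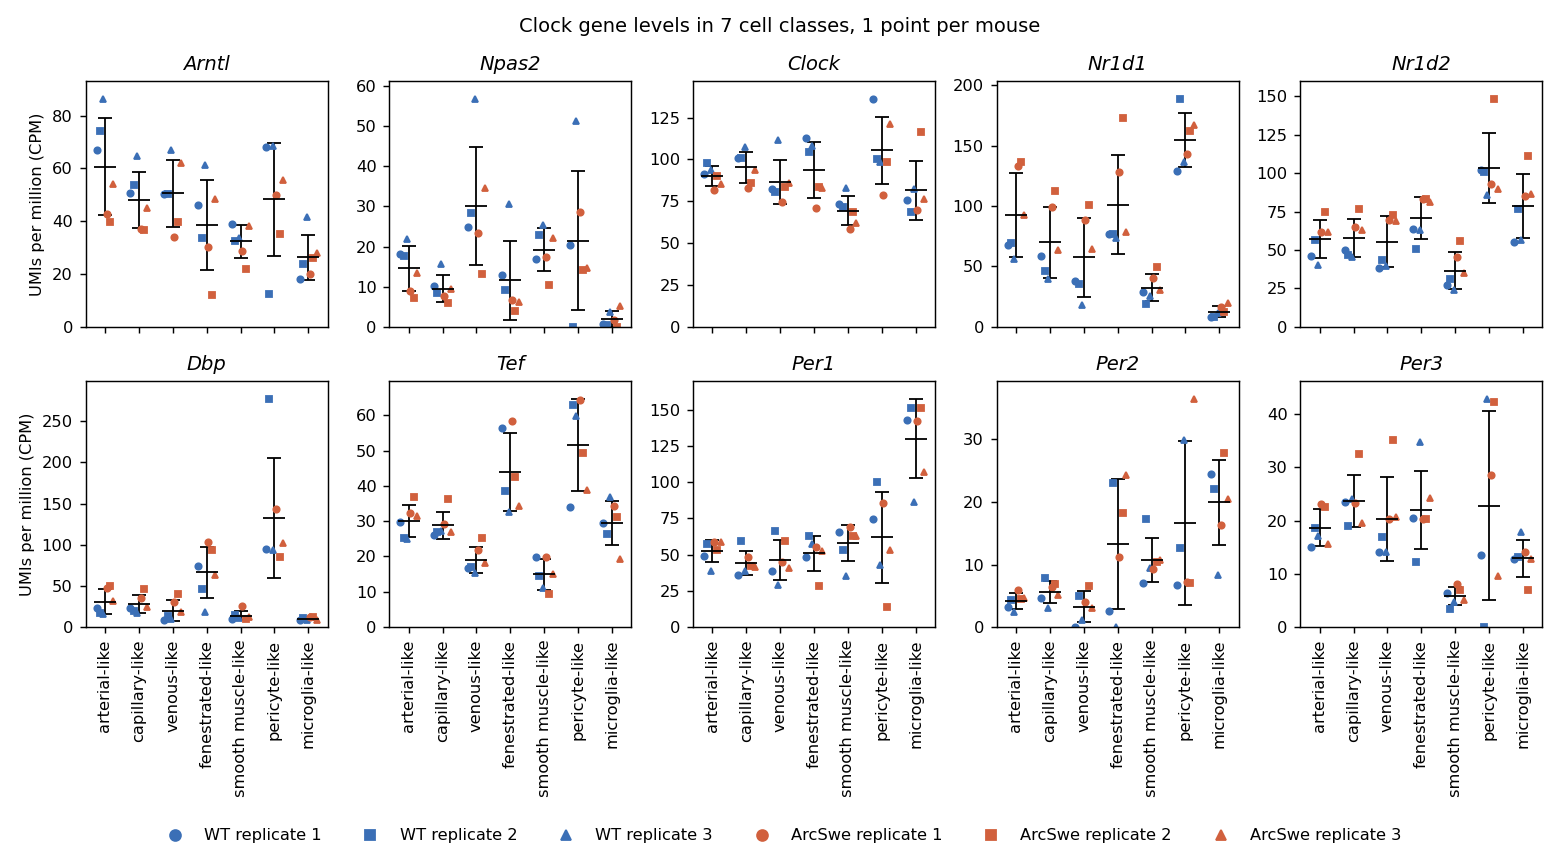
Level of each clock gene (CPM, y axis, each panel with its own scale from 0) in the 7 cell classes (x axis). Each point is 1 mouse, coloured by genotype, and the bar is the mean of the 6 mice. *Nr1d1* and *Dbp* have their highest means in pericytes (154 and 132 CPM) and *Per1* and *Per2* theirs in microglia.

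The fitted differences are on a scale normalised by trimmed means (TMM), whose mean log2 factor was -0.23 in microglia, -0.14 in smooth muscle cells, 0.23 in pericytes and 0.01 to 0.07 in the endothelial classes. The factors of pericytes and microglia differed by 0.46 and those of pericytes and smooth muscle cells by 0.37, and a difference in CPM is shifted against the fitted one by about such an amount. Of the 60 pairs of neighbours in the orders by mean CPM, 12 had a fitted difference of the opposite sign, none of which was called. With size factors from relative log expression in place of TMM, 9 of the 210 differences changed direction, none of which was called. The RNA of endothelial cells in the microglial class was set against the low microglial values. The level that the endothelial marker share alone would carry in was 0.66, 0.65 and 4.47 CPM in WT mice and 1.35, 0.36 and 3.84 CPM in ArcSwe mice for *Npas2*, beside measured values of 0.710, 0.432 and 3.80 CPM in WT mice and 1.65, 0 and 5.08 CPM in ArcSwe mice. The measured *Npas2* in microglia was thus no larger than that share in 2 of 3 WT mice. For *Nr1d2* the carried level was 2.07 to 17.1 CPM, against 55.3 to 111 CPM measured.

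The second comparison was ArcSwe against WT mice in each cell type, with 1 edgeR quasi-likelihood fit per class over all genes. In barrier endothelial cells *Nr1d1*, *Nr1d2*, *Dbp* and *Tef* were higher in each ArcSwe mouse than in each WT mouse, and *Arntl* and *Clock* were lower in each. Over the 12727 tested genes with a symbol of their own, 3.02% were higher without overlap in this way and 7.69% lower. On the TMM scale of the fits these shares were 4.95% and 4.91%, and *Npas2* joined the genes that were lower. In edgeR 0 of the 10 genes passed an adjusted p of 0.05, the lowest being 0.999, and 6 of 10 had an unadjusted p under 0.05. In this fit 0% of all genes were called, and 500 of 12734 (3.93%) had an unadjusted p under 0.05. DESeq2, which was also the study's tool for sums per mouse, called *Nr1d1* (adjusted p = 0.00604) and *Dbp* (adjusted p = 0.0201) among the 10, and 8 of all 12240 genes for which it gave an adjusted p (0.0654%). Whether these genes differ between the genotypes thus depended on the test, and the values below are given as differences in size and order.

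*Nr1d1* measured 58.6, 52.6 and 42.6 CPM in WT mice 1, 2 and 3 and 108, 119 and 73.6 CPM in ArcSwe mice 1, 2 and 3. The lowest ArcSwe mouse, mouse 3, stood above the highest WT mouse, mouse 1, and the log2 fold change was 1.00 ± 0.21 SE with an unadjusted p of 0.00136. Its paralog *Nr1d2* measured 47.01, 49.4 and 42.8 CPM in WT mice 1, 2 and 3 and 64.8, 75.6 and 63.3 CPM in ArcSwe mice 1, 2 and 3. The ArcSwe mice were again all above the WT mice, with a smaller log2 fold change of 0.58 ± 0.12 SE and an unadjusted p of 0.00124. *Arntl*, which the products of these genes repress, measured 56.3, 60.01 and 73.2 CPM in WT mice 1, 2 and 3 and 38.5, 37.97 and 50.4 CPM in ArcSwe mice 1, 2 and 3. Its order was the reverse, with WT mouse 3 highest and ArcSwe mouse 2 lowest, and the log2 fold change was -0.53 ± 0.13 SE with an unadjusted p of 0.00331. These *Arntl* values rest on 268 to 903 UMIs per mouse.

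The partners of BMAL1 differed less or less evenly. *Npas2* measured 14.9, 14.2 and 24.1 CPM in WT mice 1, 2 and 3 and 10.7, 7.22 and 14.2 CPM in ArcSwe mice 1, 2 and 3, so WT mouse 2 and ArcSwe mouse 3 met at 14.2 CPM, and the log2 fold change was -0.65 ± 0.25 SE with an unadjusted p of 0.0337. On the TMM scale its groups did not overlap. *Clock* measured 94.8, 97.1 and 103 CPM in WT mice 1, 2 and 3 and 81.1, 86.98 and 89.9 CPM in ArcSwe mice 1, 2 and 3. Its groups did not overlap but lay close, with a log2 fold change of -0.16 ± 0.08 SE and an unadjusted p of 0.0841.

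Of the PAR bZIP genes, *Dbp* measured 20.99, 18.3 and 15.5 CPM in WT mice 1, 2 and 3 and 38.5, 46.5 and 26.2 CPM in ArcSwe mice 1, 2 and 3. All ArcSwe mice were above all WT mice, with ArcSwe mouse 3 nearest to them, and the log2 fold change of 1.05 ± 0.22 SE was the largest of the 10 (unadjusted p = 0.00165). *Tef* measured 25.9, 24.9 and 24.6 CPM in WT mice 1, 2 and 3 and 29.1, 35.1 and 27.3 CPM in ArcSwe mice 1, 2 and 3, with a log2 fold change of 0.30 ± 0.12 SE and an unadjusted p of 0.0332. The WT values of *Tef* differed from each other by less than 2 CPM, and the gap to the lowest ArcSwe mouse was smaller than the range among ArcSwe mice. The Period genes overlapped between the groups. *Per1* measured 40.7, 59.6 and 37.5 CPM in WT mice 1, 2 and 3 and 51.1, 47.7 and 47.1 CPM in ArcSwe mice 1, 2 and 3, and WT mouse 2 held the highest value of all. Its log2 fold change of 0.11 became -0.04 without WT mouse 3. *Per2* and *Per3* had log2 fold changes of 0.44 ± 0.36 SE and 0.32 ± 0.17 SE, *Per2* at only 31 to 98 UMIs per mouse.

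**Figure D2:**
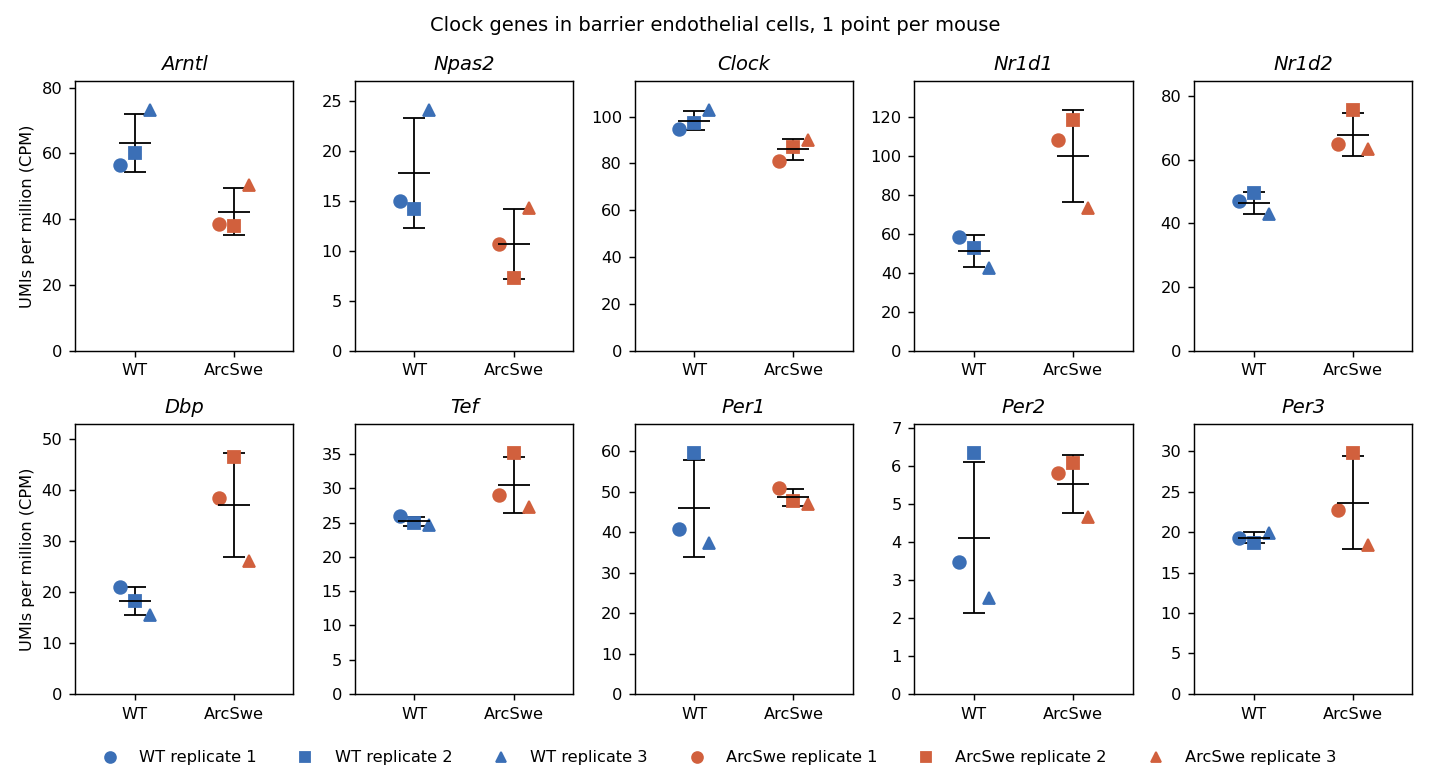
Level of each clock gene in barrier endothelial cells (CPM, y axis, each panel with its own scale from 0) by genotype (x axis), with 1 point per mouse and the mean ± SD of 3 mice. The ArcSwe points of *Nr1d1*, *Nr1d2*, *Dbp* and *Tef* lie above all WT points, those of *Arntl* and *Clock* lie below, and *Per1*, *Per2* and *Per3* overlap.

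In each of the 3 barrier zones *Nr1d1*, *Nr1d2* and *Dbp* were higher in all ArcSwe mice than in all WT mice. In arterial cells 5 genes were higher in all ArcSwe mice (*Nr1d1*, *Nr1d2*, *Dbp*, *Tef*, *Per2*; background 3.16%) and 3 were lower (*Arntl*, *Npas2*, *Clock*; background 7.04%). On the TMM scale *Clock* overlapped, which left 5 higher (background 4.67%) and 2 lower (background 4.9%). In the other 6 classes the same genes did not overlap on either scale, and their TMM backgrounds lay between 4.33% and 6.95% for higher and between 4.3% and 7.3% for lower. Arterial *Arntl* measured 66.99, 74.3 and 86.2 CPM in WT mice and 42.7, 39.6 and 54.04 CPM in ArcSwe mice, and arterial *Nr1d1* measured 67.4, 69.7 and 56.3 CPM in WT mice and 133, 136 and 92.5 CPM in ArcSwe mice. The log2 fold changes in this zone were -0.68 ± 0.14 SE for *Arntl*, -0.86 ± 0.22 SE for *Npas2*, 0.93 ± 0.17 SE for *Nr1d1* and 1.21 ± 0.20 SE for *Dbp*. In capillary cells 3 genes were higher (*Nr1d1*, *Nr1d2*, *Dbp*; background 3.22%) and 2 lower (*Arntl*, *Clock*; background 7.4%), with log2 fold changes of 0.96 ± 0.23 SE for *Nr1d1*, 0.82 ± 0.24 SE for *Dbp* and -0.47 ± 0.12 SE for *Arntl*. In venous cells, where *Per2* did not pass the filter on low counts, 5 were higher (*Nr1d1*, *Nr1d2*, *Dbp*, *Tef*, *Per3*; background 3.24%) and 0 lower (background 6.28%). Venous *Nr1d1* measured 37.9, 35.8 and 17.98 CPM in WT mice and 88.3, 101 and 64.3 CPM in ArcSwe mice, a log2 fold change of 1.48 ± 0.27 SE, and venous *Dbp* measured 8.13, 13.2 and 9.26 CPM in WT mice and 30.04, 40.7 and 18.6 CPM in ArcSwe mice, a log2 fold change of 1.51 ± 0.33 SE. The zones are cells of the same 6 libraries, so they are not independent of each other or of the barrier sum.

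By edgeR 0 of the 10 genes were called in each of these zones, with lowest adjusted p values of 0.380 in arterial, 0.829 in capillary and 0.9996 in venous cells, and 6 of 10, 5 of 10 and 4 of 9 had an unadjusted p under 0.05, against 4.12%, 4.62% and 3.45% of all genes. The share of all genes called was 0.00899% in arterial cells and 0% in capillary and venous cells. DESeq2 called *Dbp* and *Nr1d1* in arterial cells (adjusted p = 0.00101 and 0.00103), *Nr1d1* in capillary cells (adjusted p = 0.0447) and *Nr1d1* in venous cells (adjusted p = 0.00559), where it called 0.14%, 0.0518% and 0.0105% of all genes. With the replicate number as a block edgeR called *Nr1d1* in venous cells (log2 fold change 1.51, adjusted p = 0.0163), the 1 gene called of 9556. In arterial cells the same block gave calls for 2 of the 10 genes, among 8 of 11122 genes. Deviations of same-numbered mice correlated much alike in venous (0.11, 0.11 and 0.30) and arterial cells (0.12, 0.098 and 0.30).

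Fenestrated endothelial cells, which line the choroid plexus and other vessels without a barrier, gave 76.7, 76.9 and 73.5 CPM in WT mice and 128, 173 and 78.9 CPM in ArcSwe mice for *Nr1d1* and 63.9, 50.8 and 63.3 CPM in WT mice and 83.2, 83.3 and 80.9 CPM in ArcSwe mice for *Nr1d2*. These 2 genes were higher in all ArcSwe mice (background 3.27%) and *Clock* was lower in all (background 6.14%), among the 8 that passed the filter on low counts. *Npas2* and *Per2* did not pass it. *Dbp* measured 74.2, 46.2 and 18.4 CPM in WT mice and 103, 93.4 and 62.7 CPM in ArcSwe mice, with a log2 fold change of 0.99 ± 0.36 SE, and its groups overlapped. No clock gene was called by edgeR or DESeq2 in fenestrated cells, where each called 0% of all genes, and 4 had an unadjusted p under 0.05 in edgeR (background 4.2%), with a lowest adjusted p of 0.999. The summed level of 5 erythroid genes in these cells was 2696, 2253 and 379.8 CPM in WT mice and 5236, 13580 and 360.1 CPM in ArcSwe mice, and its part in the result was not tested.

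Smooth muscle cells shared the direction of the REV-ERB genes. *Nr1d1* measured 28.6, 18.7 and 25.9 CPM in WT mice and 40.8, 49.96 and 30.7 CPM in ArcSwe mice and *Nr1d2* 27.4, 31.2 and 24.3 CPM in WT mice and 45.5, 55.8 and 35.03 CPM in ArcSwe mice. Both were higher in all ArcSwe mice (background 3.45%), with log2 fold changes of 0.69 ± 0.22 SE and 0.71 ± 0.21 SE, and *Clock* was lower in all (background 7.42%). *Arntl* measured 39.1, 32.6 and 33.8 CPM in WT mice and 28.6, 22.1 and 38.2 CPM in ArcSwe mice, a log2 fold change of -0.13 ± 0.20 SE, and the groups overlapped. *Dbp* measured 9.93, 15.2 and 10.6 CPM in WT mice and 25.1, 10.5 and 12.9 CPM in ArcSwe mice, a log2 fold change of 0.53 ± 0.34 SE. No clock gene was called by edgeR or DESeq2, each of which called 0% of all genes, and 2 had an unadjusted p under 0.05 in edgeR (background 4.17%, lowest adjusted p = 0.995).

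In pericytes 5 genes passed the filter on low counts (*Clock*, *Nr1d1*, *Nr1d2*, *Dbp*, *Per1*). All overlapped between the groups, while 4.04% of the genes tested were higher and 5.4% lower without overlap. *Nr1d1* measured 129, 188 and 137 CPM in WT mice and 143, 162 and 167 CPM in ArcSwe mice, with a log2 fold change of 0.16 ± 0.27 SE. *Dbp* measured 95.2, 276 and 94.1 CPM in WT mice and 143, 84.6 and 102 CPM in ArcSwe mice, and its log2 fold change of -0.30 ± 0.40 SE rested on WT mouse 2, without which it was 0.23. That mouse gave 28 pericytes, with 22 UMIs of *Dbp* and 1 of *Arntl*. Neither edgeR nor DESeq2 called a clock gene or any other, 0 of 5 had an unadjusted p under 0.05 (background 4.04%), and the lowest adjusted p was 0.999. *Arntl*, below the filter, had 1 to 23 UMIs per mouse in pericytes and was not tested there.

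In microglia *Nr1d1* measured 7.80, 8.42 and 11.8 CPM in WT mice and 16.5, 12.2 and 19.5 CPM in ArcSwe mice and *Nr1d2* 55.3, 76.9 and 56.6 CPM in WT mice and 84.9, 111 and 86.6 CPM in ArcSwe mice. Both were higher in all ArcSwe mice (background 4.62%), with log2 fold changes of 0.96 ± 0.27 SE and 0.64 ± 0.24 SE, and none of the 9 that passed the filter on low counts (*Npas2* did not) was lower in all (background 12.1%). No clock gene was called by edgeR or DESeq2, 2 of 9 had an unadjusted p under 0.05 in edgeR (background 7.84%), and the lowest adjusted p was 0.403. The share of all genes called was 0.0349% by edgeR and 0.899% by DESeq2. The *Nr1d1* level that the endothelial marker share would carry in was 2.58, 2.42 and 7.90 CPM in WT mice and 13.7, 5.87 and 19.9 CPM in ArcSwe mice, which is as high as the measured value in ArcSwe mouse 3. The carried *Nr1d2* level was at most 17.1 CPM, beside means of 62.9 CPM in WT and 94.2 CPM in ArcSwe mice. *Arntl* measured 18.3, 23.8 and 41.8 CPM in WT mice and 20.1, 26.1 and 27.9 CPM in ArcSwe mice and *Dbp* 8.16, 10.8 and 8.36 CPM in WT mice and 12.4, 12.2 and 8.79 CPM in ArcSwe mice, both with overlap, and their log2 fold changes were -0.06 ± 0.30 SE and 0.33 ± 0.31 SE. The clusters that hold most microglia differed between the mice, as given above. Clusters 3 and 13, which stayed in the main fit, held most microglia of WT mouse 3 and of each ArcSwe mouse. Without clusters 3 and 13, whose median ribosomal protein share was 2.17% and 2.01%, the log2 fold change was 0.76 ± 0.40 SE for *Nr1d1* and 0.06 ± 0.22 SE for *Nr1d2*. This fit kept 773, 610 and 77 microglia in WT mice 1, 2 and 3 and 326, 18 and 440 in ArcSwe mice 1, 2 and 3. Those of WT mice 1 and 2 were mostly of cluster 11 and those of ArcSwe mouse 3 mostly of cluster 19, so it compares few and unlike cells. In that fit 0 of 9 clock genes had an unadjusted p under 0.05 and 3 were higher and 6 lower in ArcSwe mice, in place of 6 higher and 3 lower, while 273 of 9832 genes were called.

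**Figure D3:**
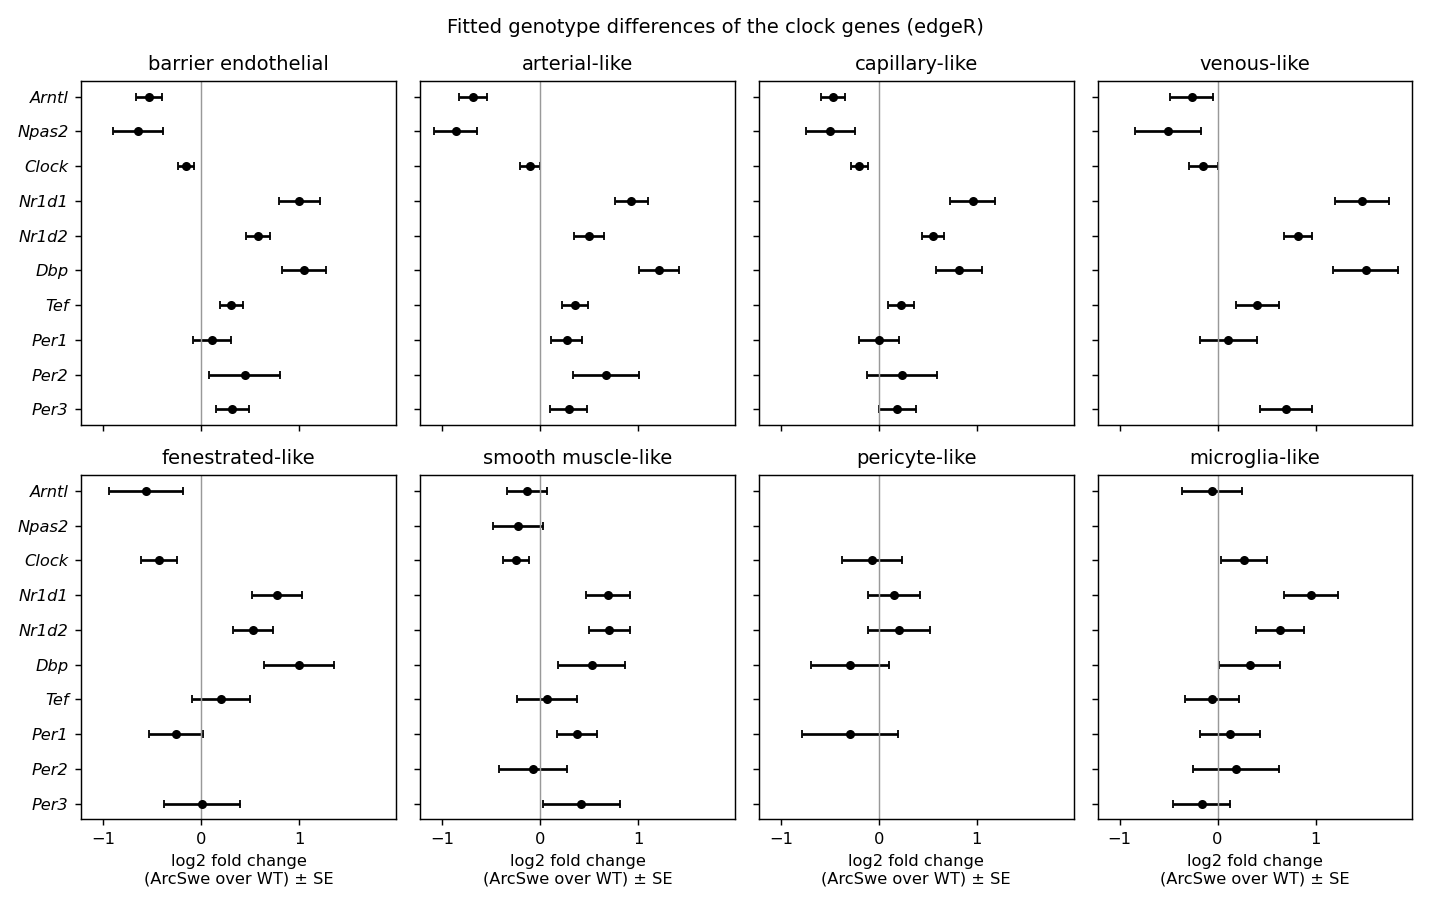
Log2 fold change of ArcSwe against WT mice (x axis) for each clock gene (y axis) in the 8 cell classes, with bars of 1 SE, from edgeR on sums per mouse. *Nr1d1* and *Nr1d2* lie above 0 in each class, *Arntl* lies below 0 wherever it was tested, and only genes that passed the filter on low counts in a class are drawn.

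Whether the genotype difference itself varied with cell type was tested as an interaction, with capillary cells as the reference. No clock gene was called by edgeR for smooth muscle cells, pericytes or microglia, where 0%, 0% and 0.127% of all 12635 genes were called. At an unadjusted p under 0.05 there were 0, 1 and 1 of the 10 genes, against 1.81%, 3.42% and 11.1% of all genes, and no other tool was run for this test. The *Dbp* log2 fold change in pericytes minus that in capillary cells was -0.98 ± 0.39 SE (unadjusted p = 0.021) and that of *Nr1d1* was -0.70 ± 0.35 SE (unadjusted p = 0.0608). For *Npas2* in microglia it was 1.62 ± 0.62 SE (unadjusted p = 0.016, adjusted p = 0.348), where the endothelial share given above was close to the measured level, and without WT mouse 3 it was called (adjusted p = 0.0261). In smooth muscle cells the terms ran from -0.34 for *Per2* to 0.40 for *Per1*. The smaller *Arntl* and *Dbp* differences of smooth muscle cells and microglia are therefore not shown to differ from those of capillary cells.

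To follow the 2 arms of the loop mouse by mouse, the summed CPM of the 7 genes driven through E-boxes (*Nr1d1*, *Nr1d2*, *Dbp*, *Tef*, *Per1*, *Per2*, *Per3*) was divided by that of *Arntl*, *Npas2* and *Clock*, and the log2 of this ratio is given as a description with no test. In barrier endothelial cells the log2 ratio was 0.38, 0.42 and -0.11 in WT mice 1, 2 and 3 and 1.30, 1.44 and 0.75 in ArcSwe mice 1, 2 and 3. In smooth muscle cells, which were clustered separately, it was 0.35, 0.28 and -0.23 in WT mice 1, 2 and 3 and 1.06, 1.02 and 0.50 in ArcSwe mice 1, 2 and 3. Both cell types placed WT mouse 3 lowest, the other 2 WT mice next, then ArcSwe mouse 3, and ArcSwe mice 1 and 2 highest. In fenestrated cells the log2 ratio was 1.00, 1.07 and 0.48 in WT mice 1, 2 and 3 and 2.09, 2.21 and 1.38 in ArcSwe mice 1, 2 and 3, and the mice fell in the same order. The median UMIs of kept cells were 4617.5, 4608 and 3271.5 in WT mice 1, 2 and 3. In ArcSwe mice 1, 2 and 3 they were 3958, 5542 and 2922. Mouse 3 was thus the shallowest of each group, while WT mice 1 and 2 were deeper than ArcSwe mice 1 and 3. In barrier endothelial cells 8 microglial markers summed to 132, 154 and 414 CPM in WT mice and 255, 209 and 519 CPM in ArcSwe mice. The part of depth and such RNA in the order was not tested.

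Across the 7 classes, all ArcSwe mice were above all WT mice in 5 (arterial, capillary, venous, fenestrated and smooth muscle), WT mouse 3 was lowest in 6, ArcSwe mouse 1 or 2 was highest in 6 and ArcSwe mouse 3 was the lowest ArcSwe mouse in 6. The difference of the group means was 1.04 in arterial, 0.818 in capillary, 1.13 in venous, 1.04 in fenestrated and 0.727 in smooth muscle cells. Without WT mouse 3 these were 0.891, 0.682, 0.783, 0.856 and 0.548. Mice of the same genotype differed as well: the smallest range among WT mice in any class was 0.416 on this log2 scale, in capillary cells. In pericytes the log2 ratio was 1.02, 2.71 and 1.17 in WT mice 1, 2 and 3 and 1.84, 1.78 and 1.38 in ArcSwe mice 1, 2 and 3, and in microglia it was 1.57, 1.73 and 0.82 in WT mice 1, 2 and 3 and 1.80, 1.31 and 1.33 in ArcSwe mice 1, 2 and 3. The groups overlapped in both, with differences of means of 0.0301 and 0.106, which became 0.569 without WT mouse 2 and -0.171 without WT mouse 3. The classes of a mouse come from 1 library, so the shared order of the mice is a property of 6 libraries and not of independent samples.

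**Figure D4:**
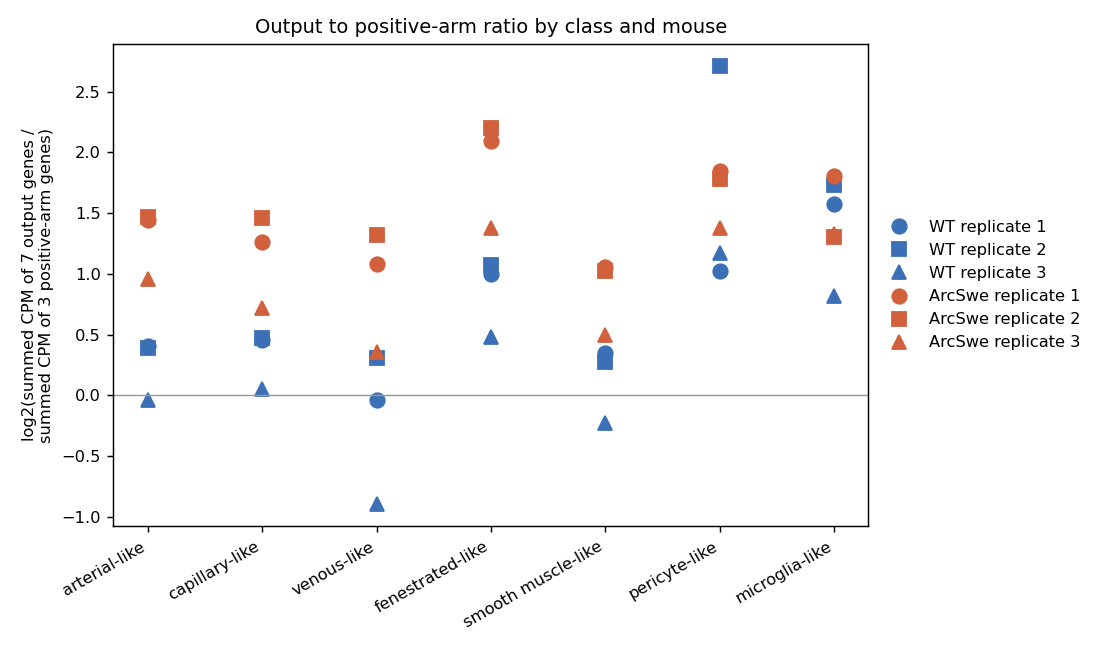
Log2 ratio of the summed CPM of the 7 E-box-driven genes to that of *Arntl*, *Npas2* and *Clock* (y axis) in each cell class (x axis), with 1 point per mouse. The points of the 3 ArcSwe mice lie above those of the 3 WT mice in the endothelial classes and smooth muscle cells. In pericytes and microglia the points of the groups overlap.

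The pattern of *Arntl* was also compared with that of all 7145 genes with a mean of at least 10 CPM in barrier endothelial cells, smooth muscle cells and pericytes. Each gene was taken as its deviation from the class mean over the 6 mice, which gives 18 points that share 6 libraries, and Pearson's r is a description. The 10 genes most like *Arntl* were *Tet3*, *Mfap3*, *Npas2*, *Ccdc9b*, *Clasp1*, *Htt*, *Zfp532*, *Igip*, *Hmbox1* and *Slc25a27*, with r from 0.88 to 0.93, so its partner *Npas2* stood at rank 3 with 0.92. *Arntl* ran opposite to *Dbp* (r = -0.71), *Nr1d1* (r = -0.58) and *Nr1d2* (r = -0.47). The 10 genes most like *Dbp* were *Rpl22*, *Tomm6*, *Cdk2ap1*, *Rps24*, *Rpl10*, *Rps20*, *Rpl24*, *Ndufa2*, *Cox6c* and *Rps19* (r from 0.70 to 0.80), of which 9 encode ribosomal or mitochondrial proteins. In the pericytes of WT mouse 2 the deviation from the class mean was -1.68 for *Arntl* and 1.19 for *Dbp* on the log2 scale. *Npas2* measured 0 CPM and *Arntl* 12.6 CPM there, from 79623 UMIs of all genes. That thin point enters the r of *Npas2* with *Arntl*, which is also given without pericytes below.

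Without pericytes, an alternative chosen after seeing the data, 12 points remained. The genes most like *Arntl* were then *Plpbp*, *Fmo5*, *Rbm5*, *Nktr*, *Hmbox1*, *Vgll4*, *Strn3*, *Npas2*, *Hmgxb3* and *Susd6*, 2 of which (*Npas2* and *Hmbox1*) were also among the 10 over 18 points. *Npas2* stood at rank 8 with 0.85, and *Nr1d1* and *Nr1d2* were at the far end of the list, with r of -0.86 and -0.84 and ranks 7141 and 7138 of 7145. *Dbp* lost all 10 of its nearest genes to others (*Hnrnpm*, *H2-Q4*, *Pfkl*, *Fkbp8*, *Rps18*, *Pigt*, *Eno1*, *Denr*, *Gm12940*, *Lix1l*), and *Nr1d1* stood at rank 53 for it, with r of 0.64.

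Other genes of the clock were counted from fixed lists. Of 14 further loop genes, among them the *Cry* and *Ror* genes, 12 were tested in barrier endothelial cells, 7 had a higher and 5 a lower fitted level in ArcSwe mice, 0 were called by edgeR and 2 had an unadjusted p under 0.05 (background 3.93%, median log2 fold change 0.06, against 0.00 over all genes). *Hlf*, the remaining PAR bZIP gene, measured 26.8, 32.4 and 28.2 CPM in WT mice and 35.4, 38.4 and 35.1 CPM in ArcSwe mice. Its groups did not overlap, and its log2 fold change was 0.35 ± 0.12 SE (unadjusted p = 0.0176). In smooth muscle cells *Hlf* measured 58.97, 74.1 and 63.4 CPM in WT mice and 46.7, 51.1 and 48.3 CPM in ArcSwe mice, the reverse order and again without overlap, with a log2 fold change of -0.39 ± 0.15 SE (unadjusted p = 0.0201). The interaction of smooth muscle against capillary cells was -0.73 ± 0.25 SE with an unadjusted p of 0.00906 and was not called. *Bhlhe41*, a repressor of the loop, measured 1.94, 2.45 and 4.30 CPM in WT mice and 6.04, 3.54 and 5.42 CPM in ArcSwe mice (log2 fold change 0.86 ± 0.33 SE), and *Nfil3*, which competes with the PAR bZIP factors for D-boxes, measured 12.5, 11.9 and 7.30 CPM in WT mice and 8.18, 6.09 and 8.69 CPM in ArcSwe mice (log2 fold change -0.42 ± 0.25 SE).

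Of 10 clock-controlled output genes, 9 were found under their listed names and tested in barrier endothelial cells, 7 with a higher and 2 with a lower fitted level, 0 called by edgeR and 1 with an unadjusted p under 0.05 (background 3.93%, median log2 fold change 0.16). *Tspan4*, a tetraspanin, measured 64.9, 54.1 and 58.7 CPM in WT mice and 72.5, 73.7 and 70.9 CPM in ArcSwe mice, without overlap (log2 fold change 0.33 ± 0.09 SE, unadjusted p = 0.0065). *Coq10b* and *Noct* had log2 fold changes of 0.16 ± 0.10 SE and 0.25 ± 0.19 SE. Of 10 glucocorticoid-responsive genes, tested because adrenal hormone can shift *Per1*, 5 were higher and 5 lower, with 0 called by edgeR, 0 at an unadjusted p under 0.05 and a median of -0.05. The smallest unadjusted p of this list was that of *Pdk4*, followed by *Fkbp5* and *Dusp1*. *Fkbp5*, a direct target of the glucocorticoid receptor, measured 3.64, 6.17 and 13.4 CPM in WT mice and 5.27, 2.55 and 6.70 CPM in ArcSwe mice, with overlap.

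The 13 immediate early genes, which respond to the dissociation of tissue, were lowest in WT mouse 3 in barrier endothelial cells in 12 of 13 cases. *Fosb* measured 1557, 1725 and 669 CPM in WT mice and 1908, 1701 and 1696 CPM in ArcSwe mice in barrier endothelial cells, *Zfp36* 1155, 1265 and 638 CPM in WT mice and 1487, 1144 and 1144 CPM in ArcSwe mice and *Dusp1* 1419, 1574 and 909.8 CPM in WT mice and 1684, 1482 and 1455 CPM in ArcSwe mice. In these 3 genes the other 2 WT mice lay among or near the ArcSwe mice, and in the other classes WT mouse 3 was lowest in 11 to 13 of the 13. Of the 13 genes, 11 had a higher and 2 a lower fitted level in ArcSwe mice, 0 were called by edgeR and 0 had an unadjusted p under 0.05 (median log2 fold change 0.23). WT mouse 3 was also the mouse with the highest *Arntl* and the lowest log2 ratio in barrier endothelial cells. Without it the log2 fold changes there were 0.85 for *Nr1d1*, 0.49 for *Nr1d2*, 0.90 for *Dbp* and -0.45 for *Arntl*. In microglia the counts of these genes ran the other way, with 2 higher and 11 lower (median -0.35), 0 called by edgeR and 0 at an unadjusted p under 0.05, and in pericytes all 13 had a higher fitted level (median 0.62), 0 called by edgeR and 6 at an unadjusted p under 0.05 (background 4.04%). WT mouse 3 was lowest in all 13 in pericytes, so these counts are not independent of that 1 library. Over these 4 lists DESeq2 called 0 genes in barrier endothelial cells and in the other vascular classes, and in microglia it called *Bhlhe40* and *Noct*, where it called 0.899% of all genes.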

How the data were processed

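Single-cell 3′ libraries of brain vessel cells from 3 WT and 3 ArcSwe mice were analysed. The deposited matrices hold UMI counts for each gene in each cell, which the authors made with Cell Ranger 7.0.0 against an mm10 transcriptome with mouse *Clec7a* and human *NOTCH3* added and did not normalise. Each library held 26436229 to 59161203 UMIs, and its kept cells had a median of 2922 to 5542.

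The study's first filters, on genes and mitochondrial UMIs per cell, were followed. Its later removal of a microglial cluster low in ribosomal and high in mitochondrial genes was not applied to the main fits. Microglial clusters 3 and 13, with low ribosomal shares, stayed in them and were left out in an alternative fit. Cells with 500 to 4500 genes and under 10% mitochondrial UMIs were kept. The 2000 most variable genes, without the clock genes, the listed genes and mitochondrial and ribosomal protein genes, gave 30 principal components, 20 neighbours and Leiden clusters at resolution 1. Clusters were named from fixed markers, and endothelial and mural cells were clustered again with each gene centred per library. A zone needed a mean marker z score of at least 0.25 and a gap of at least 0.4 to the next zone. These limits were set after the cluster profiles were seen. Earlier results of these data were known, so the limits cannot be called blind to the clock genes. Clusters with mixed or weak markers stayed unnamed. They held 12578 cells, and 1167 cells were of other types. Endothelial cells in which *Cx3cr1* or *Aif1* had a count (4005 cells) were left out as in the study. No doublet caller was run, so remaining doublets cannot be counted.

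UMIs were summed per mouse and class. Genes of ribosomal proteins and of the mitochondrial genome, pseudogenes and Rik genes were not tested. The quasi-likelihood test of edgeR 4.0.16 in R 4.3.3 was used with TMM, its filter on low counts and Benjamini-Hochberg adjustment over all genes, with genotype as the only term. Cell types were compared over 21 pairs of classes with the mouse as a block. SE is the log2 fold change divided by the root of its F statistic. DESeq2 1.42.0 was an alternative, and an adjusted p that it did not give stayed missing. The scripts were tested on simulated counts with a fixed spread between mice. Of genes changed 2-fold the edgeR genotype fit called 24.6% in fenestrated cells to 42.9% in barrier endothelial cells. Of genes changed 4-fold it called 97.4% in microglia to 100% in arterial and capillary cells. In such counts most 2-fold differences were thus not called. Genes were named by a fixed rule: all 10 members, the 3 genes of each other list with the smallest unadjusted p in barrier endothelial cells, and the 10 genes most like *Arntl* and *Dbp* by Pearson's r of log2(CPM + 1). The members, lists and tests were chosen with earlier results of these data known.

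Replicate numbers come from the sample labels, which name no shared litter or day. Deviations of same-numbered mice from their group means correlated at 0.11, 0.11 and 0.30 in venous cells. In microglia the correlations were 0.22, 0.17 and 0.38, and in both classes all 3 were over 0.1. In the other classes at least 1 of the 3 correlations was not over 0.1, in arterial cells only narrowly (0.12, 0.098 and 0.30). Outside pericytes all 3 were positive in each class, and the pair numbered 3 ran from 0.19 in pericytes to 0.38 in microglia. In microglia 6 libraries correlated best with their own number. This held for 5 in arterial, venous, fenestrated and smooth muscle cells, 4 in capillary cells and 2 in pericytes. The main fits, with genotype as the only term, leave such pairing out. Between differently numbered mice the correlation reached 0.109 in venous and 0.118 in arterial cells. Each class was also fitted with the number as a block, as an alternative. Each mouse gave 1 library, and p-values of the genotype fits measure the spread between 3 mice per group. Those of the cell type and interaction fits, with the mouse as a block, measure the spread of class differences between mice.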

Additional observations from a re-analysis of the deposited data

How the results depend on the processing

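The number of clock genes called for genotype depended on the test. It was 0 in each class by edgeR and stayed 0 with relative log expression size factors, with ribosomal and mitochondrial genes kept, with a stricter cell filter, at cluster resolution 2, with microglial UMIs kept, with all endothelial clusters summed (added after seeing the data), without low-ribosomal microglia and without any 1 mouse. It was 2 in barrier, 2 in arterial, 1 in capillary and 1 in venous cells with DESeq2 (8, 15, 6 and 1 of all genes), 4 in arterial and 3 in venous cells with no low-count filter (128 of 19286 and 59 of 17485 genes), and, with the replicate number as a block, 2 in arterial cells (*Dbp* and *Nr1d1*; 8 of 11122 genes) and 1 in venous cells (1 of 9556). The block changed no other call of a clock gene. The cause of these changes was not tested. Fold changes under the alternatives were followed in barrier endothelial cells, smooth muscle cells and microglia only. Of 405 alternative fold changes there, 386 kept their direction and side of the threshold, 2 passed it and 17 turned. The other classes are not in this count. In capillary cells, 7 higher and 3 lower clock genes became 5 higher and 5 lower without WT mouse 3.

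In barrier endothelial cells, smooth muscle cells and microglia the fold changes that turned were small ones in the main fit. In smooth muscle cells *Per2* became 0.019 with the block, 0.004 with the stricter cell filter and 0.025 at resolution 2. In microglia *Clock* became -0.33, *Per1* -0.17 and *Per2* -0.38 without low-ribosomal clusters, *Tef* 0.011 at resolution 2 and *Per1* -0.088 with the stricter filter. Leaving out 1 mouse gave -0.043 (without WT mouse 3) to 0.386 for *Per1* in barrier endothelial cells, -0.31 to 0.36 for *Per2* and -0.17 to 0.34 for *Tef* in smooth muscle cells, and in microglia -0.27 to 0.22 for *Arntl*, -0.16 to 0.30 for *Per1*, -0.21 to 0.48 for *Per2* and -0.31 to 0.21 for *Tef*. In barrier endothelial cells the same range was 0.85 to 1.18 for *Nr1d1*, 0.86 to 1.25 for *Dbp* and -0.68 to -0.45 for *Arntl*.

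Between cell types, 192 of 210 alternative counts stayed within 1.5 times the one reported. The backgrounds given above belong to the main fit only, and the shares of all genes called in the refits are not given. The counts below therefore show only how far the calls moved, and not whether clock genes differ more often than other genes. In the WT mice alone the counts were 1 for arterial minus capillary, 2 for arterial minus fenestrated, 3 for arterial minus pericyte, 2 for capillary minus fenestrated, 3 for capillary minus pericyte and 4 for venous minus smooth muscle cells, in a fit of fewer samples. At resolution 2 they were 8 for capillary minus pericyte, 5 for capillary minus venous, 3 for fenestrated minus pericyte and 8 for venous minus pericyte, with 636 in place of 423 pericytes, and with relative log expression fenestrated minus pericyte gave 2. Leaving out 1 mouse gave 1 to 3 for arterial minus capillary, 3 to 5 for arterial minus fenestrated (3 without ArcSwe mouse 1), 0 to 2 for fenestrated minus pericyte (0 without WT mouse 2 or 3) and 0 to 1 for the interaction of microglia (1 without WT mouse 3). The difference of the log2 ratio between the groups was larger with *Dbp* over *Arntl* alone, at 1.53 in barrier, 1.87 in arterial, 1.25 in capillary, 1.75 in venous and 1.84 in fenestrated cells, and was 1.43 in fenestrated cells with means of log2(CPM + 1). Depth limits pericytes most, where 5 of 10 genes could be tested.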

Other observations

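In microglia, 2 genes of the fixed lists stood out from the clock genes themselves. *Noct*, which encodes the rhythmic phosphatase nocturnin, measured 7.45, 9.07 and 15.2 CPM in WT mice and 23.2, 20.9 and 43.4 CPM in ArcSwe mice. The groups did not overlap, with a log2 fold change of 1.65 ± 0.36 SE and an adjusted p of 0.209 by edgeR, and DESeq2 called it. *Bhlhe40*, a repressor of the loop, measured 7.81, 11.2 and 24.3 CPM in WT mice and 52.7, 20.9 and 72.3 CPM in ArcSwe mice, with overlap, a log2 fold change of 1.99 ± 0.48 SE and an adjusted p of 0.291 by edgeR, and DESeq2 called it as well. DESeq2 called 103 of 11459 genes in microglia (0.899%) and edgeR 4. Both are abundant in barrier endothelial cells, where *Noct* measured 71.1 to 111 CPM and *Bhlhe40* 124 to 335 CPM, and the endothelial marker share of the microglial class was 4.40% to 27.0%. The microglial class of these values included the low-ribosomal clusters 3 and 13. *Bhlhe40* was chosen after its values were seen.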
